A study of Homo sapiens with 3 samples.

Results

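The genes of 2 opposed helix-loop-helix families were read in OCI-AML2 R50 cells with and without romidepsin: the 4 ID genes (ID1, ID2, ID3 and ID4) and the 3 E-protein genes (TCF3, TCF4 and TCF12). They were taken by gene name, and all 7 were found among 25247 named symbols, each in a row of its own. The set was chosen with its response to romidepsin in view, so its romidepsin values are given as a description without a test. OCI-AML2 is an established acute myeloid leukaemia (AML) cell line. All libraries came from the R50 culture of this line, kept in MEM alpha medium with 50 µM cytarabine (Ara-C, a nucleoside analogue used in AML chemotherapy) and 15% serum. The control group was 1 library of this culture, and the romidepsin group was 2 libraries from cells given romidepsin for 18 h. Romidepsin is a cyclic peptide that inhibits class I histone deacetylases. The sources used here do not give its dose or say whether the romidepsin libraries came from separate cultures. The p-values therefore reflect the spread between these libraries alone, and that spread may be technical. A difference between cultures and the effect of romidepsin cannot be told apart with a single control.

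E proteins are basic helix-loop-helix transcription factors that bind the E-box, a short DNA motif, as dimers with each other or with lineage-restricted partners. ID proteins carry the helix-loop-helix but lack the basic region that contacts DNA, so a dimer of an ID protein with an E protein does not bind the E-box. In blood, E proteins are best known for driving lymphoid and plasmacytoid dendritic cell development, and ID proteins for holding them in check in other lineages, often downstream of bone morphogenetic protein (BMP) and TGF-beta signals.

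The promoters of the ID genes are shown because the 3 expressed members were all higher after romidepsin while the fourth stayed near 0. Each is the 250 bases before the RefSeq gene start, 5′ to 3′ on the gene's strand, in build GRCh38.p14 (the deposited values rest on hg19 and carry no coordinates). Capitals mark the E-box letters CANNTG, the box CCAAT (read on either strand, so also ATTGG) and TATAAA. The windows are chr20:31605039-31605288 on the plus strand for ID1, chr2:8681806-8682055 on the plus strand for ID2, chr1:23559502-23559751 on the minus strand for ID3 and chr6:19837120-19837369 on the plus strand for ID4.
ID1: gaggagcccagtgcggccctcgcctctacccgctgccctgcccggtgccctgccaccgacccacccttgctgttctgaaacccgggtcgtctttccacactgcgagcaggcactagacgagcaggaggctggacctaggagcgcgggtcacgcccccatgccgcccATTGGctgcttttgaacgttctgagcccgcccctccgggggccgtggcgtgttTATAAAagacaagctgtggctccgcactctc
ID2: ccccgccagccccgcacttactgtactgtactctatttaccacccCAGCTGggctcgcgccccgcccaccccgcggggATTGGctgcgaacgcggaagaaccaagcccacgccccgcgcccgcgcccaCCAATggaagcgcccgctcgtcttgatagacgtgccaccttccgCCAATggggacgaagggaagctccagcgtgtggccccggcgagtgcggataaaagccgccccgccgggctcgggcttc
ID3: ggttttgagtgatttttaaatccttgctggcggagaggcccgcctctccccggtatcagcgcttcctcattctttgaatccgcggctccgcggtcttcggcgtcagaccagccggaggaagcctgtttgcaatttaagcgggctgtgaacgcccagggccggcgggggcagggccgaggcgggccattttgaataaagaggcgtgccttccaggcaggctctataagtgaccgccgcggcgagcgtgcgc
ID4: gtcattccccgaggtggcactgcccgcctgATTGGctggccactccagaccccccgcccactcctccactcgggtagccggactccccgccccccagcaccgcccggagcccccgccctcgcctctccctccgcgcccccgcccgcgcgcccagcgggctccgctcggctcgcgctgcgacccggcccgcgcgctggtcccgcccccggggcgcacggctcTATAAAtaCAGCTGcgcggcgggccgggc

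The ID promoters did not share 1 set of these letters. TATAAA stood 31 bases before the start in ID1 and 29 bases before it in ID4, and was absent from the windows of ID2 and ID3. It occurs in 6.80% of 35116 RefSeq windows of this length, searched on the gene strand. CCAAT occurred 3 times in ID2 (at 172, 122 and 78 bases before the start), once in ID1 (at 84) and once in ID4 (at 220), against 32.0% of all windows with at least 1 match on either strand. The only E-boxes were the sequence CAGCTG in ID2, 205 bases before the start, and in ID4, 21 bases before it, and 61.8% of all windows hold a CANNTG. The GC box GGGCGG, on either strand, occurred 2 times in ID1, 2 times in ID2 and 6 times in ID4, and 42.6% of all windows hold it. The ID3 window held none of these 4 motifs. GC content was 66.0% in ID1, 69.2% in ID2, 62.0% in ID3 and 78.8% in ID4, above the median of 58% over all windows. TCF3, by comparison, had 8 GC boxes and no E-box, CCAAT or TATAAA in its window. TCF4 and TCF12 have 10 and 5 listed starts, and which of them the cells used cannot be read from gene-level values.

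Levels are FPKM (fragments per kilobase of transcript and relative to all mapped fragments), as the authors deposited them, so levels of different genes can be set side by side. The summed FPKM ran from 657213 to 790922 per library, and 10838 to 11458 named genes reached 1 FPKM. The steps between low values correspond to about 20780000 fragments in the control and to 24680000 and 22420000 in the romidepsin libraries, an approximate depth. Of 7 myeloid markers fixed for this check, 6 reached 1 FPKM in every library; the other, ANPEP, went from 0.654 to 5.40 and 5.24 FPKM. The summed myeloid markers went from 6054 FPKM to 3711 and 3661 FPKM, most of it through LYZ (4258 against 2630 and 2596 FPKM), while CEBPA was higher after romidepsin (223 against 265 and 262 FPKM). All 4 erythroid markers were listed at 0 in every library, which can be a failed estimate, and no T-cell or epithelial marker reached 1 FPKM. The summed B-cell markers reached 2.27 and 2.36 FPKM with romidepsin against 0.952 FPKM without. The summed fibroblast markers went from 0.0525 to 3.79 and 3.79 FPKM through COL1A1 and DCN, with COL1A2 and the joint row of COL3A1 and MIR3606 at 0. The part of these markers in the results was not tested. In such bulk RNA, fewer cells that express a gene and less RNA per cell cannot be told apart.

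ID2, the inhibitor best known for natural killer and dendritic cell development, had the largest difference of the set in FPKM and in log2(FPKM + 1), though not in the ratio of FPKM. It was at 0.681 FPKM in the control, and at 21.3 and 21.2 FPKM in the romidepsin libraries. Both romidepsin libraries lay far above the control and nearly coincided, with 21.2 ± 0.0708 FPKM (SD, n = 2). The FPKM ratio was 31.2, with an approximate 95% interval of 21.6 to 48.7 from about 26 fragments in the control (exact binomial, counting error only, on fragments rebuilt from the estimated depth). This interval and those of ID1 and ID3 below pool the romidepsin libraries. They leave out any spread between libraries or cultures and are not tests of the difference. On the log2(FPKM + 1) scale, which understates the change of low genes, the difference was 3.73, the 10th highest of the 11708 genes that reached 1 FPKM in at least 1 library.

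ID1, a target of BMP signalling in many cell types, was the highest of the ID genes in the control, at 1.04 FPKM. It reached 7.38 and 6.28 FPKM in the romidepsin libraries, both above the control. The mean was 6.83 ± 0.779 FPKM (SD, n = 2), a ratio of 6.60 with an approximate interval of 4.30 to 10.5, and the log2 difference was 1.94. ID3, known for restraining E proteins in B and T cells, went from 0.109 FPKM to 4.63 and 5.57 FPKM. The romidepsin libraries again lay above the control, by 2.46 on the log2 scale. The control value corresponds to only about 2 fragments, so the ratio of 47.0 has an approximate interval from 15.5 to 471. ID4, an ID gene expressed mainly in neural and epithelial tissue, was listed at 0 FPKM in the control and in romidepsin replicate 1, and at 0.0142 FPKM in replicate 2. These libraries do not separate such values from no expression.

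Within the romidepsin pair, ID1 was 1.18-fold higher in replicate 1 and ID3 was 1.20-fold higher in replicate 2, so these 2 genes varied in opposite directions. Each gap was 1.48 times the SD that counting error alone gives at the approximate depth, and that of ID2 was 0.102 times it.

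**Figure D1:**
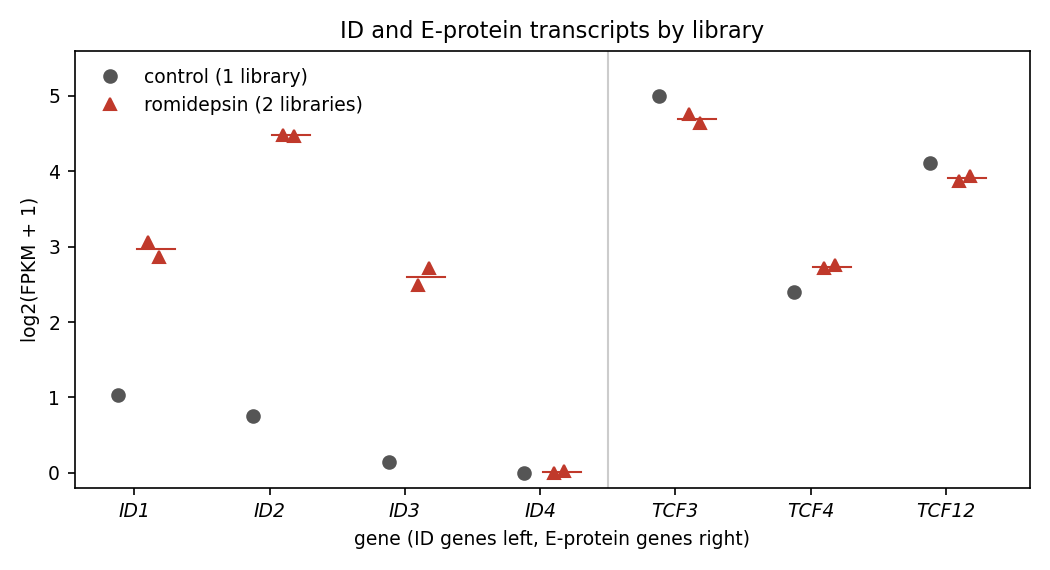
Level of each gene in log2(FPKM + 1), with a grey circle for the control library, red triangles for the 2 romidepsin libraries and a red line at their mean. ID1, ID2 and ID3 lie well above their control with romidepsin, ID4 is near 0 in every library, and the E-protein genes differ by at most 0.33.

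The E-protein genes differed far less and in both directions. TCF3, the founding E-protein gene and a regulator of early B-cell development, was at 31.1 FPKM in the control, and the romidepsin libraries gave 26.0 and 23.9 FPKM. Both romidepsin libraries were below the control (mean 25.0 ± 1.55 FPKM, SD, n = 2), a ratio of 0.803. Their gap of 1.09-fold was 3.10 times the SD of counting error at the approximate depth, the widest of the set by that measure. TCF12, which encodes the E protein HEB of T-cell development, was at 16.2 FPKM in the control against 13.7 and 14.4 FPKM with romidepsin. These too lay below the control, with a ratio of 0.865. TCF4, the E protein that sets plasmacytoid dendritic cell identity, went the other way, from 4.30 FPKM to 5.58 and 5.74 FPKM, a ratio of 1.32 with the groups apart.

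On the log2 scale the differences were -0.31 for TCF3, -0.20 for TCF12 and 0.33 for TCF4, beside a median of -0.05 over all genes tested. Scaling each library to the same sum moves that median to 0.16. With this scaling TCF12 turned to 0.03 and TCF3 to -0.07, and TCF4 went to 0.53. Relative to the median of all genes, TCF12 was at -0.15 as deposited and -0.13 with the scaling, TCF3 at -0.26 and -0.23, and TCF4 at 0.38 and 0.37. ID1, ID2 and ID3 were 1.93, 3.71 and 2.38 above it with the scaling.

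Of the 6 genes that reached 1 FPKM, ID1, ID2 and ID3 were at least 2-fold higher on the log2(FPKM + 1) scale in both romidepsin libraries, as were 7.43% of all genes tested. None was 2-fold lower, against 3.08% of all genes. Both romidepsin libraries were above the control for 4 of the 6 (43.8% of all genes) and below it for 2 (51.4%). The set was chosen from this contrast, and ID2 and ID3 passed the 1 FPKM minimum only through the romidepsin libraries, so nothing is read from these counts.

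**Figure D2:**
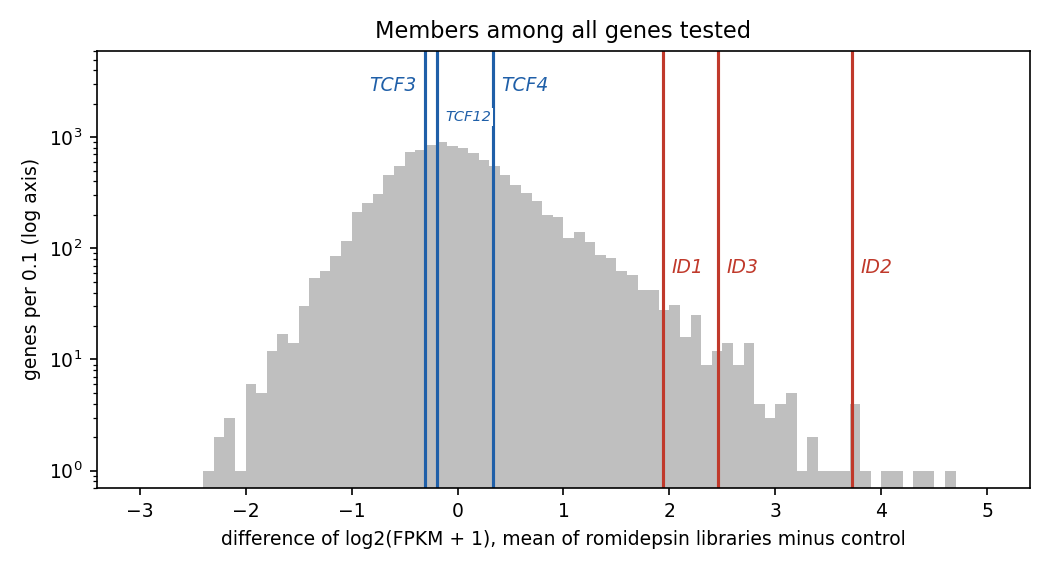
Histogram of the difference of log2(FPKM + 1), mean of the romidepsin libraries minus control, over 11708 genes (log count axis), with red lines at ID genes and blue lines at E-protein genes. TCF3, TCF12 and TCF4 fall in the bulk between -0.31 and 0.33, and ID1, ID3 and ID2 in the right tail at 1.94, 2.46 and 3.73.

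Summed over each family, the balance of transcripts moved toward the ID genes. The control held 1.82 FPKM of ID transcripts, and the romidepsin libraries held 33.3 and 33.1 FPKM. E-protein transcripts summed to 51.6 FPKM in the control and, with romidepsin, to 45.3 and 44.0 FPKM. The ratio of ID to E-protein FPKM was thus 0.0354 in the control, and 0.735 and 0.752 after romidepsin, a 21.0-fold difference. A ratio within a library does not depend on the scaling between libraries, although it moved to 12.1-fold with quantile normalization, which reshapes each library. The make-up of the ID sum differed as well. ID1 held 56.7% of it in the control, and 22.2% and 19.0% after romidepsin. ID2 held 37.3% in the control, and 63.9% and 64.1% after romidepsin. ID3 went from 5.95% to 13.9% and 16.8%. The E-protein sum kept TCF3 as its main part, with 60.2% in the control, and 57.5% and 54.3% after romidepsin. The share of TCF4 went from 8.33% to 12.3% and 13.1%, and that of TCF12 was 31.4% against 30.2% and 32.7%, the control lying between the romidepsin libraries.

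In the control the order of levels was TCF3, TCF12, TCF4, ID1, ID2, ID3 and ID4, with every E-protein gene above every ID gene; a single library gives no spread for these steps. In both romidepsin libraries it was TCF3, ID2, TCF12, ID1, TCF4, ID3 and ID4. ID2 thereby stood above TCF12, with the 2 genes' ranges apart. Its FPKM came to 0.818 and 0.889 of that of TCF3, against 0.0219 in the control. ID1 (6.28 to 7.38 FPKM), TCF4 (5.58 to 5.74 FPKM) and ID3 (4.63 to 5.57 FPKM) followed so closely that the gaps between neighbours' nearest libraries were smaller than the SD of ID1 or ID3 (0.779 and 0.665 FPKM).

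**Figure D3:**
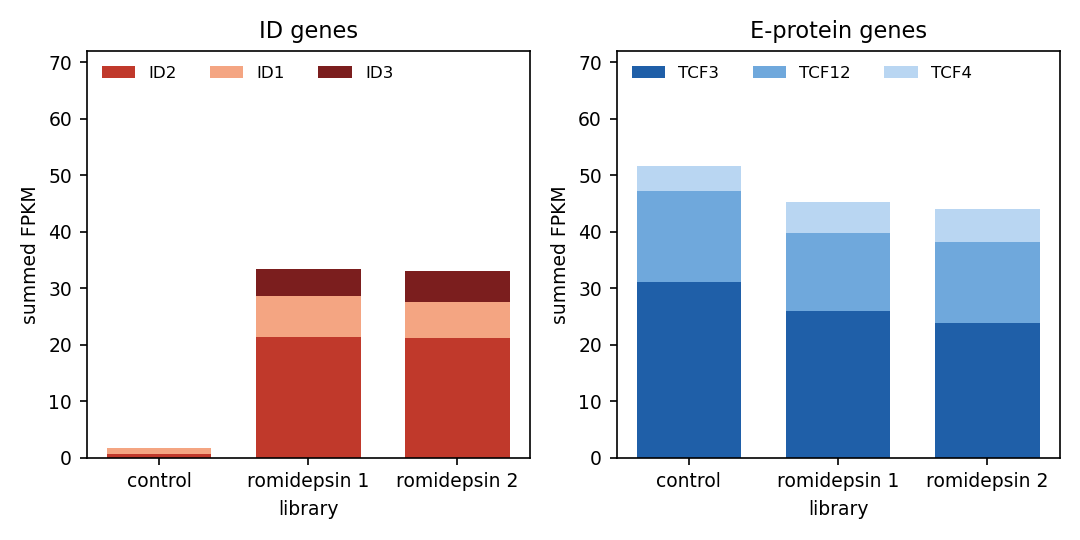
Stacked FPKM of the ID genes (left) and the E-protein genes (right) in each library, on the same linear axis from 0. The ID sum goes from 1.82 to 33.3 and 33.1 FPKM, mostly ID2, while the E-protein sum goes from 51.6 to 45.3 and 44.0 FPKM.

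The genes with the most similar values over the 3 libraries, by Euclidean distance of log2(FPKM + 1), were found for each gene above 1 FPKM. JUP (distance 0.09), CD86 (0.21) and SGK1 (0.37) lay nearest to ID2. ABHD4, GABBR1 and OPTN (0.11 to 0.13) lay nearest to ID1, and TLR7, ICAM1 and MYO6 (0.19 to 0.23) to ID3. The nearest to TCF3 were INTS1, SRP19 and ENG (0.04 to 0.06), to TCF12 TARS2, RANBP3 and TRIQK (0.02 to 0.04), and to TCF4 RANBP10, TAB3 and SMYD4 (0.02 to 0.04). With 3 libraries such a match describes level and change only.

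Genes that act with the ID and E proteins were compared by limma on all 11708 genes, and called at a Benjamini-Hochberg adjusted p under 0.05. Over all genes 4057 (34.7%) were called higher and 4896 (41.8%) lower, so 45.3% of calls were higher, against 65.0% with scaling to the same sum. A list's count is to be read against those shares. The lists were chosen with earlier results of these data known, so their counts and calls are not independent support for a pattern.

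Partners of the E proteins that bind DNA with them, the class II factors, mostly had low listed values. Of 29 listed, 23 stayed under 1 FPKM in every library, and the haematopoietic factor gene TAL1 reached at most 0.0110 FPKM. Of the 23, 15 were listed at 0 throughout, which can be a failed estimate and is not read as absence. Of the 6 tested, 4 were called lower and 1 higher (median -0.46), beside 41.8% and 34.7% of all genes tested. Among the 4, ASCL2 was at 1.31 FPKM in the control and at 0.626 and 0.641 FPKM with romidepsin. It was tested only through its higher control value, so its direction is not read. The median was -0.02 with no filter, and 3 were called lower with scaling to the same sum. LYL1, the TAL1 relative of blood progenitors, fell from 56.4 to 34.1 and 31.7 FPKM, by 0.76 ± 0.05 (SE) on the log2 scale (limma adjusted p = 9.63e-06). BHLHE22, a neural repressor gene, fell from 5.18 to 1.36 and 1.21 FPKM. The gene called higher, NEUROD1 of neural and endocrine cells, went from 0.174 to 1.07 and 1.05 FPKM. It could be tested only if higher after romidepsin, so its direction is not read, and the call was lost with quantile normalization.

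Of 13 tested cofactors that join E proteins in blood cell complexes, 5 were called higher and 6 lower (median -0.13). Over all genes tested the shares were 34.7% and 41.8%, so no direction is read from this list. When libraries were brought to 1 sum, the median was 0.10 and 3 were lower. SSBP3, a partner of the adaptor LDB1, rose from 8.48 to 20.3 and 21.1 FPKM, and GATA2, a progenitor transcription factor gene, from 4.39 to 11.0 and 10.5 FPKM. LMO2, the bridging protein gene of these complexes, fell from 92.1 to 67.8 and 68.1 FPKM. CBFA2T3, a corepressor gene of the ETO family, fell from 6.67 to 4.33 and 4.33 FPKM. The limma adjusted p was at most 0.000398 for these 4 genes.

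Of the HES, HEY and BHLHE repressors, which share the helix-loop-helix, only 3 of 11 were tested. HES6 fell from 19.7 to 13.6 and 12.8 FPKM and BHLHE40 from 6.09 to 3.96 and 3.91 FPKM. HES1, a Notch target, went from 0.0443 to 1.68 and 0.920 FPKM. It too could be tested only if higher after romidepsin, and its higher call was lost with quantile normalization.

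Upstream, 12 of 25 tested genes of BMP and TGF-beta signalling were called higher and 6 lower (median 0.18). The shares over all genes tested were 34.7% and 41.8%. Where only single-row symbols naming 1 gene were kept, 4 were called lower. When libraries were brought to 1 sum, 16 were higher and 1 was lower. TGIF2, among the 6 called lower, was read only in a joint row with C20orf24. Its log2 difference turned from -0.12 to 0.12 with that scaling. The receptor gene TGFBR1 rose most, from 18.4 to 46.0 and 47.6 FPKM (1.30 ± 0.04, SE, on the log2 scale, limma adjusted p = 5.18e-07). SKIL, an inhibitor of SMAD-driven transcription, rose from 3.91 to 10.1 and 10.6 FPKM. The higher call of TGFBR3 was lost with quantile normalization (limma adjusted p = 0.647). The smallest of the 12 rises was that of SMAD5, a BMP signal transducer, by 0.23. It was also lost with quantile normalization (limma adjusted p = 0.0738, range from 0.00106). Of the other BMP transducers, SMAD1 was listed at 0 in every library and SMAD9 stayed at or under 0.105 FPKM. The activin receptor gene ACVR2B fell from 2.70 to 1.24 and 1.22 FPKM. SMAD4, the common partner of the signalling SMADs, fell from 7.98 to 6.37 and 6.52 FPKM, but with libraries scaled to 1 sum it was not called (limma adjusted p = 0.431, range from 0.00537).

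Of 9 genes of ID protein turnover, 6 were called lower and 1 higher (median -0.25), beside 41.8% and 34.7% of all genes tested. When libraries were brought to 1 sum, the calls were 4 higher and 3 lower and the median was -0.03. PSMD4, a proteasome subunit gene among the 6, turned from -0.11 to 0.13 with that scaling. The direction of the list thus depended on the scaling. USP1, the deubiquitinase that stabilises ID proteins, fell from 48.5 to 36.2 and 35.1 FPKM (limma adjusted p = 6.26e-05). FZR1, an activator of the anaphase-promoting complex that targets ID proteins for degradation, rose from 11.0 to 15.0 and 15.3 FPKM. ANAPC1, a subunit of that complex, fell from 15.7 to 10.3 and 9.78 FPKM.

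Among genes known as E-protein targets in lymphoid development and cell cycle arrest, 11 of 12 tested rose and GFI1 fell (median 0.82). Over all genes tested, 34.7% were called higher and 41.8% lower. The 12 include 5 under 1 FPKM in the control, which could be tested only if higher after romidepsin; where only genes averaging at least 5 FPKM were kept, 4 were called higher and the median was 0.16. The median was 0.49 with no filter and 1.43 with a pseudocount of 0.1. With quantile normalization 8 were called higher (median 0.57), as FOXO1, IGLL1 and CD79A lost their calls. IGLL1 was read only in a joint row with GUSBP11. Where only single-row symbols naming 1 gene were kept, 10 were called higher. The rise of CDKN1A was among the results known when the list was written. The p21 gene CDKN1A rose from 1.51 to 62.2 and 58.8 FPKM. The p15 gene CDKN2B, a further brake on the cell cycle, rose from 0.340 to 5.52 and 5.72 FPKM. GFI1, a myeloid and lymphoid repressor gene, fell from 54.8 to 34.6 and 35.5 FPKM (limma adjusted p = 8.25e-06). Lymphoid members of the list, named here after their values were seen, differed among themselves. IL7R, a cytokine receptor gene, went from 0.505 to 2.81 and 2.90 FPKM, and PTCRA, a chain of the immature T-cell receptor, from 0.858 to 3.05 and 2.66 FPKM. CD79A, a chain of the B-cell receptor, went from 0.540 to 1.55 and 1.28 FPKM, a call lost with quantile normalization (limma adjusted p = 0.379, range from 0.00168). The receptor gene NOTCH1, above 1 FPKM in every library, rose from 5.93 to 10.5 and 10.8 FPKM. RAG2 was listed at 0 throughout, and RAG1, EBF1 and PAX5 were at or under 0.306, 0.143 and 0.109 FPKM.

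Of the plasmacytoid dendritic cell genes tied to TCF4, 5 of 10 tested rose and 4 fell (median 0.21). The shares over all genes tested were 34.7% and 41.8%. Of the risers, TLR7 and SPIB were under 1 FPKM in the control and so could be tested only if higher after romidepsin. Among genes averaging at least 5 FPKM the direction turned, with 1 higher and 4 lower (median -0.44), and the median was -0.04 with quantile normalization. TLR7, a sensor of RNA, rose from 0.226 to 4.41 and 5.08 FPKM. TLR9, a sensor of DNA, rose from 1.37 to 4.41 and 4.10 FPKM. IRF8, a dendritic cell and monocyte factor gene, fell from 244 to 157 and 155 FPKM, and CBFA2T3 fell as given above. CLEC4C, a surface marker of these cells, stayed at or under 0.0386 FPKM, and TCL1A was listed at 0 in every library. IL3RA, the gene of CD123 and a further member, was also listed at 0. An exact 0 in these tables can be a failed estimate and is not read as absence.

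**Figure D4:**
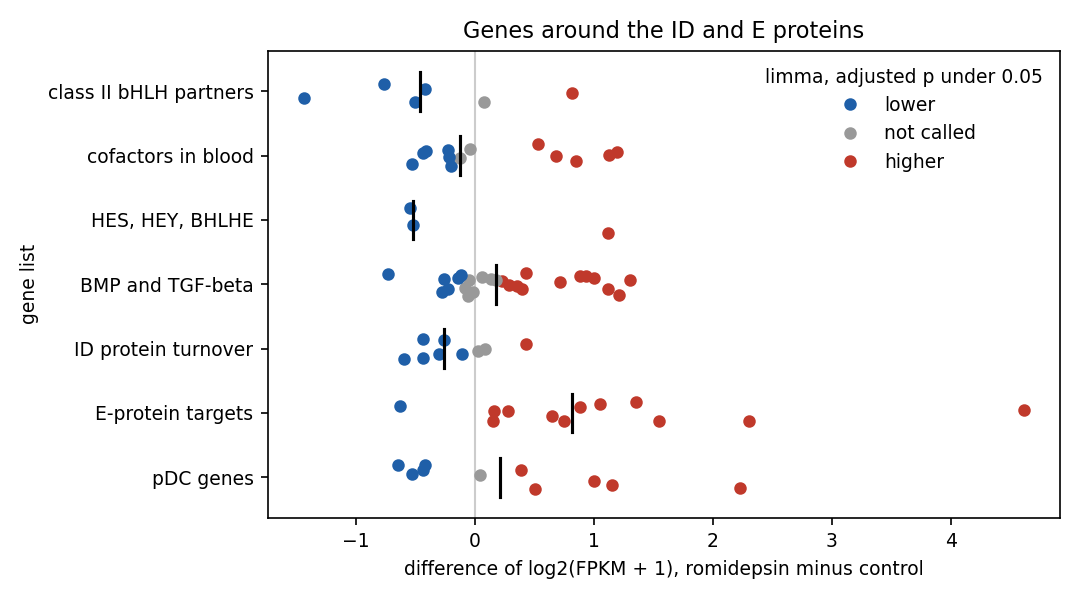
Difference of log2(FPKM + 1), romidepsin minus control, for each tested gene of 7 lists, coloured by the limma call, with a black bar at each list's median. The E-protein target list has 11 of 12 genes to the right of 0. Of these, 5 were under 1 FPKM in the control and could be tested only if higher after romidepsin. Class II partners lie mostly to the left, ASCL2 tested only through its higher control value. Over all genes tested, both romidepsin libraries were above the control for 43.8% and below it for 51.4%. Points are spread vertically for legibility only.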

How the data were processed

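FPKM tables of 3 libraries, 1 file each with 28837 rows, were analysed as the authors deposited them, the unit being that of the column names. The submitters' processing notes name TopHat, Cufflinks, Cuffdiff and the build hg19; the sources used here do not give versions, settings or annotation. The 1770 unnamed rows (21.1% to 22.3% of summed FPKM) and 27 rows named by a number were left out, and rows of 1 symbol were summed. Genes reaching 1 FPKM in at least 1 library (11708) were fitted on log2(FPKM + 1) with limma 3.58.1 in R 4.3.3 (trend; 1 residual degree of freedom and a prior of 6.06). Only the romidepsin pair has a spread, which the single control was taken to share. A list gene read only in a joint row was counted by that row.

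Fragments were estimated from the step that makes low FPKM of single-transcript genes whole, with GENCODE lengths less 175 bases. The match to whole steps was partial, with a mean cosine of 0.348 in the control and of 0.294 and 0.321 in the romidepsin libraries. For the 7 genes the longest coding transcript was used. Where shorter transcripts prevail, this overstates the fragments and narrows the intervals. Promoters came from RefSeq (GRCh38.p14), with a window for 7 of 7 genes. Python 3.11.15, numpy 2.4.6, pandas 2.3.3 and matplotlib 3.10.9 were used.

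The members and lists were chosen with earlier results of these data known. Named were the 7 genes, the 2 largest called rises and falls per list, range-setting or defining list members (chosen after their values were seen), and the 3 nearest genes per member. Alternatives were a pseudocount of 0.1, no filter, a mean of at least 5 FPKM, scaling to the same sum, quantile normalization, single-row symbols and leaving out each romidepsin library.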

Additional observations from a re-analysis of the deposited data

How the results depend on the processing

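No paired analysis was possible because there is 1 control library and its label carries no replicate number. With 1 control and a pair, the calls rest on the small spread of that pair; low counts limit ID3 in the control. ID1, ID2, ID3 and TCF4 stayed higher and TCF3 lower under each alternative that kept them; the minimum mean of 5 FPKM left out ID1 and ID3. TCF12 turned to 0.0295 with scaling to the same sum. The 21.0-fold ID to E-protein ratio was 12.1 with quantile normalization and 20.8 to 21.3 without either romidepsin library. Each of these values uses the same control, where ID1, ID2 and ID3 correspond to about 23, 26 and 2 fragments. The counting error of that control is not in the range.

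Genes called lower numbered 3069 with scaling to the same sum. Genes at least 2-fold higher in both libraries numbered 870, or 1308 with a pseudocount of 0.1 and 463 with a mean of at least 5 FPKM, and those 2-fold lower numbered 361, or 543 with a pseudocount of 0.1 and 172 with scaling to the same sum. With a mean of at least 5 FPKM, calls were 0 higher and 1 lower for class II partners and also for HES, HEY and BHLHE repressors, 7 higher for BMP and TGF-beta signalling, 4 higher for E-protein targets and 1 higher for plasmacytoid dendritic cell genes (median -0.44). With no filter, 2 were higher in each of the first 2 lists, and HES, HEY and BHLHE genes had a median of 0.18. With quantile normalization 0 were higher in both of these lists, 3 were lower in BMP and TGF-beta signalling, 3 were higher in ID turnover, and plasmacytoid dendritic cell genes had a median of -0.0397. When libraries were scaled to 1 sum, 3 cofactors were lower (median 0.10), 1 BMP and TGF-beta gene was lower, and ID turnover had 4 higher and 3 lower. These shorter lists follow from fewer genes tested where the minimum mean was raised. Scaling to the same sum raised both romidepsin libraries relative to the control. The median over all genes moved from -0.05 to 0.16, with 5705 called higher and 3069 lower. For the other settings the cause was not tested.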
